A study of Mus musculus with 12 samples.

Results

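The lymphoid priming genes described here were 10 mouse genes chosen by name, Il12a, Rag1, Rag2, Dntt, Ikzf1, Ikzf3, Bcl11a, Satb1, Notch1 and Ebf1. Earlier results of these data were known when they were chosen, so the counts of members that passed are not a test of the set. All 10 had a row among the 35869 genes of the tables, and all 10 passed the filter on low counts that left 19395 genes for testing. The cells were bone marrow HSCs, blood-forming stem cells, sorted into fractions with and without CD41, the integrin chain encoded by Itga2b that is best known from megakaryocytes and platelets. The tested genotype (KO) was MxCre1+/-,RUNX1f/f and the control genotype (WT) was MxCre1-/-,RUNX1f/f, so that both carried floxed alleles of Runx1, a transcription factor gene of blood formation. Both received 4 injections of poly(I:C), an RNA mimic that turns on interferon-driven Mx1-Cre, and marrow was taken 4 weeks after injection. The 4 groups, CD41pos KO, CD41pos WT, CD41neg KO and CD41neg WT, had 3 libraries each, and the sources used here give neither strain nor age. Mx1-Cre is active in other marrow cells and other tissues too, so the deletion was not limited to the stem cells.

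Lymphoid priming is the low-level transcription of lymphocyte genes in stem and multipotent cells that have not yet chosen a lineage. Ikaros (Ikzf1), Bcl11a, Satb1 and Ebf1 are transcription regulators that act before or during B and T cell commitment, and Notch1 is the receptor that starts the T cell program. Rag1 and Rag2 form the recombinase that cuts antigen receptor genes, and Dntt encodes terminal transferase, which adds bases at the cut ends. Il12a encodes the p35 chain of interleukin 12, which becomes active only when paired with a partner chain, the products of Il12b or Ebi3.

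Each library held between 44108035 and 58946457 counted reads. Levels are TMM-normalised CPM (reads scaled to library size), given per library or as mean ± SD with n = 3, and changes are log2 fold changes ± SE from edgeR's quasi-likelihood test with Benjamini-Hochberg adjustment over all genes tested. The labels do not say that each library came from its own animal, so the p-values measure the spread between these libraries. Of the WT libraries, 4 (CD41pos WT 1 and 4, CD41neg WT 2 and 4, the libraries numbered up to 6) detected 21973 to 23306 genes, against 23494 to 27097 in the other 8. Changes in the results without those 4 are given for some members, and as counts of members called. Both KO 2 libraries held 308 and 318 CPM of Xist, while KO 1 and KO 3 held 83.4 to 103 CPM of the Y-linked Ddx3y, against at most 0.161 CPM in KO 2. All 6 WT libraries held Xist (113 to 339 CPM), and 4 of them also held Ddx3y (11.2 to 38.9 CPM), so those 4 held both transcripts. The libraries labelled WT4 differed, with 22.5 CPM of Ddx3y in CD41pos and 0 in CD41neg. Levels of Ddx3y and Xist were thus not balanced between the genotypes. All 10 stem cell markers on the list used (among them Procr, Mecom and Slamf1) were detected in every group, with summed levels of 1530 to 1680 CPM in CD41pos KO, 701 to 1590 CPM in CD41pos WT, 1320 to 1940 CPM in CD41neg KO and 1100 to 1720 CPM in CD41neg WT. The lowest sum was that of CD41pos WT 3. Runx1 itself was higher in KO in both gates (adjusted p = 0.00201 for 1.13 ± 0.15 in CD41pos and 0.00368 for 1.03 ± 0.15 in CD41neg cells). The total of a gene also counts exons outside a deleted part, so it does not check the deletion.

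In the GRCm38 (mm10) build, all members are protein-coding genes, placed here by their whole annotated span. Il12a lies on chromosome 3, 68690644 to 68698547, plus strand. Rag2 (chromosome 2, 101624718 to 101632529, plus strand) and Rag1 (chromosome 2, 101638282 to 101649501, minus strand) are neighbours that face each other, and Notch1 is on the same chromosome, 26457903 to 26516663, minus strand. Dntt lies on chromosome 19, 41029275 to 41059525, plus strand. Ikzf1 (11685003 to 11772926, plus strand), Bcl11a (24078056 to 24174123, plus strand), Ebf1 (44617317 to 45008091, plus strand) and Ikzf3 (98464902 to 98546031, minus strand) lie on chromosome 11, and Satb1 on chromosome 17, 51736187 to 51833290, minus strand. Since the libraries do not mark strand, overlaps matter: B230118H07Rik shares 6.1% of the exon bases of Rag2 and 1.2% of those of Rag1, and 0610009E02Rik shares 7.5% of those of Notch1.

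The promoters of the 3 members that rose in CD41neg KO cells are shown because they are where a transcription factor such as RUNX1 could be looked for. They are RefSeq sequences (GRCm38.p6), 250 bases before to 50 after a start site, written 5′ to 3′ on the gene's strand, with matches to the RUNX core (TGTGGT or TGCGGT, both strands, no overlap between them) in capitals. Il12a has 2 annotated starts, chr3:68690394-68690693 and chr3:68691174-68691473, both plus strand. The Rag1 window is chr2:101649483-101649782, minus strand, and the Rag2 window is chr2:101624462-101624761, plus strand.
Il12a, start 1: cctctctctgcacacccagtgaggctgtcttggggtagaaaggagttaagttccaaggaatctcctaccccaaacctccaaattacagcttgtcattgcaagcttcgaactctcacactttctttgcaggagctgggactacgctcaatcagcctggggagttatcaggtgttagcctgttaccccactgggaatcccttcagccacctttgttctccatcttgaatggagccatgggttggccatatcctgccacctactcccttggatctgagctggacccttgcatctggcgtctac
Il12a, start 2: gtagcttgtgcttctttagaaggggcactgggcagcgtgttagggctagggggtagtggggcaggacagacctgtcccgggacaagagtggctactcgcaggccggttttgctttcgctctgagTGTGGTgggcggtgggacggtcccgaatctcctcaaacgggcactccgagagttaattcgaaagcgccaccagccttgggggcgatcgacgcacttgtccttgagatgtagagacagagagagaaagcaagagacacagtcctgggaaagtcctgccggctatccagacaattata
Rag1: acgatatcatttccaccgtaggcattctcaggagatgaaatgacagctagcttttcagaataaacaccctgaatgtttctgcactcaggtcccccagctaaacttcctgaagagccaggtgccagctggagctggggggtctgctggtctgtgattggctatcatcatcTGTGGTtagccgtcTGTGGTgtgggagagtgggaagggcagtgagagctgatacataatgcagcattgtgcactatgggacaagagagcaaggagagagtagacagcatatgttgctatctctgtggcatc
Rag2: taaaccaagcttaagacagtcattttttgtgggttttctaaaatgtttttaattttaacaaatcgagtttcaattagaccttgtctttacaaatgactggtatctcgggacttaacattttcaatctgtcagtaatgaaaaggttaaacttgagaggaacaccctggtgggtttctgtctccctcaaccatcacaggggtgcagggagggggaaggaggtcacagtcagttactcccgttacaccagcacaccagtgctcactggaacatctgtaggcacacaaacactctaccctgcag

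The second Il12a window held 1 match, 126 bases before the start, and the Rag1 window held 2, at 81 and 67 bases before it. The first Il12a window and the Rag2 window held none. Of the 16 windows listed for 9 members (Ikzf3 has no entry), 3 held a match, the third being at Ebf1, whose level did not pass the test between genotypes. Among all 32851 promoter windows 22.4% held one. The Ikaros core (TGGGAA, both strands) was in 7 of the 16 windows, including both of Il12a and that of Rag1, against 25.6% of all. These are letter matches only.

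How strongly the members were transcribed differed widely. On the authors' TPM scale, which divides by a gene length, Il12a was highest with a mean of 27.5 over the 12 libraries, followed by Bcl11a (12), Dntt (8.16), Notch1 (5.86) and Ikzf1 (4.55). Rag2 (0.783), Ikzf3 (0.533), Satb1 (0.317), Rag1 (0.267) and Ebf1 (0.15) were below 1 TPM, where the deposited values have only 1 decimal. The order of the TPM values leans on the lengths. From counts and TPM, the length used for Ikzf1 came to 95695 bases, close to its whole span of 87924 bases and 16.6 times its 5777 annotated exon bases. The same ratio was 3.92 for Ebf1, 3.32 for Satb1, 2.81 for Bcl11a and 0.52 to 1.76 for the others, against 0.297 to 3.59 for the central 90% of 6736 protein-coding genes. Levels of Ikzf1, Ebf1, Satb1 and Bcl11a relative to the others are therefore uncertain, while comparisons of the same gene between libraries do not depend on the length.

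**Figure D1:**
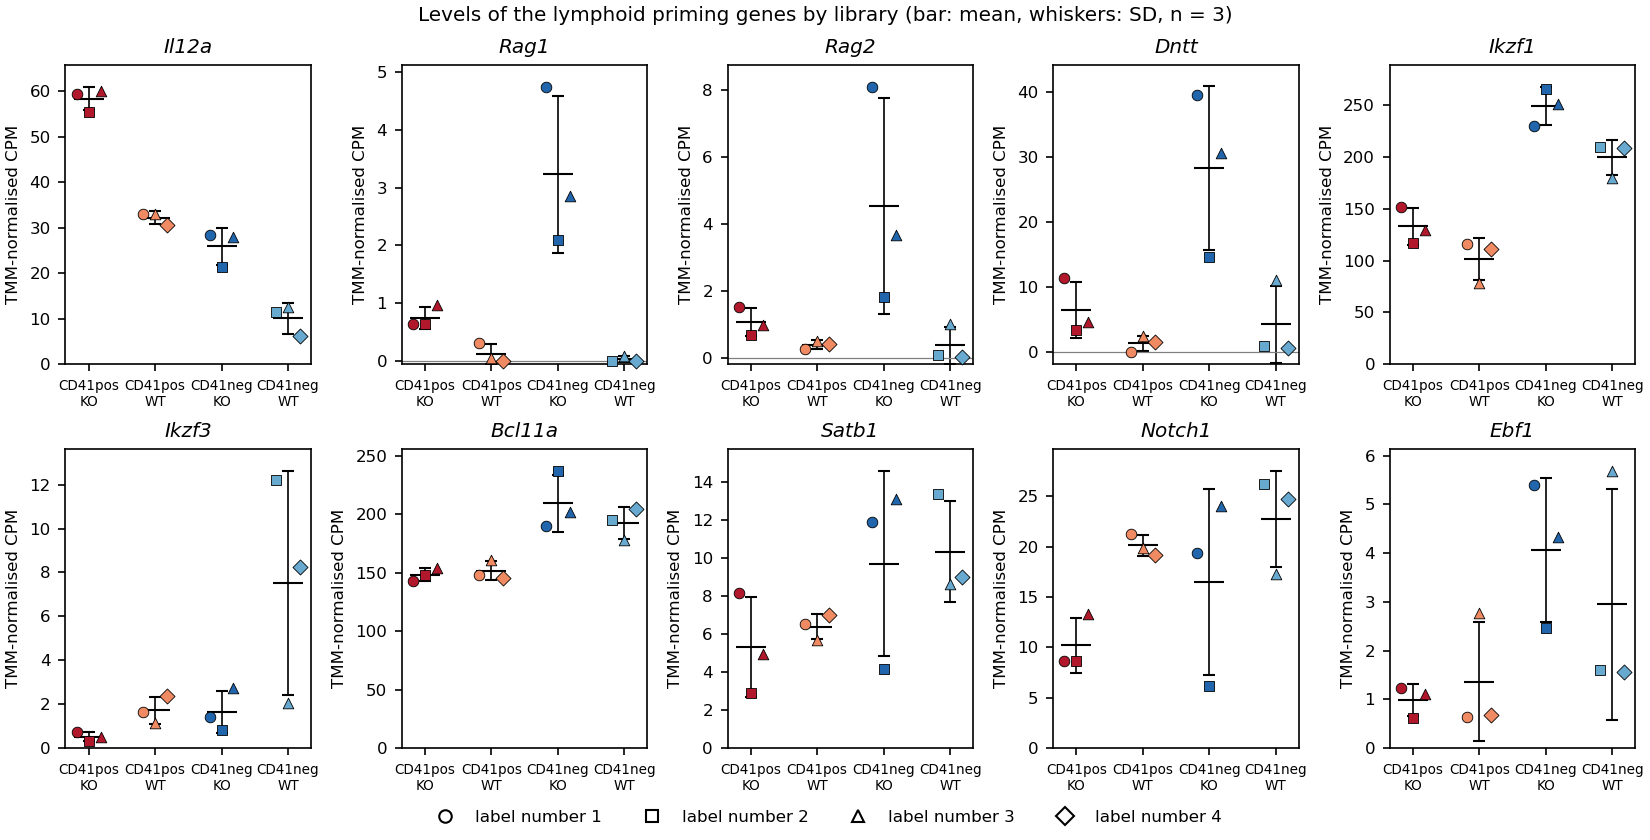
TMM-normalised CPM of the 10 members (vertical axes, each gene on its own scale) in the 4 groups; symbols are libraries, shaped by the number in the label, horizontal bars are means and whiskers SD (n = 3). Il12a in the KO groups lies above its WT group in both gates, Rag1, Rag2 and Dntt are highest in CD41neg KO, and Ikzf3 is highest in CD41neg WT 2 and 4.

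Whether loss of Runx1 changes the lymphoid program of each stem cell fraction was asked by comparing KO with WT within a gate. In CD41neg HSCs, Il12a, Rag1 and Rag2 rose and Ikzf3 fell, so 4 of the 10 members passed, where 7.82% of all genes tested did. In CD41pos HSCs only Il12a passed, 1 of 10, against 17.1% of all genes. The median log2 fold change of the 10 members was 0.39 in CD41neg and 0.17 in CD41pos cells, against -0.03 and -0.08 over all genes tested. In 5 members of each gate all KO libraries lay above all WT libraries (Il12a, Rag1, Rag2, Dntt and Ikzf1), a pattern shown by 18.5% of all genes in CD41neg and 21.9% in CD41pos cells.

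Il12a had 59.4, 55.4 and 60.1 CPM in CD41pos KO 1, 2 and 3, against 33.0, 33.1 and 30.6 CPM in CD41pos WT 1, 3 and 4. In the CD41neg gate it had 28.5, 21.3 and 27.9 CPM in KO 1, 2 and 3, against 11.5, 12.6 and 6.22 CPM in WT 2, 3 and 4. Every KO library stood above every WT library of its gate, and the replicates of the CD41pos groups were close together. The log2 fold change was 1.36 ± 0.23 in CD41neg cells (adjusted p = 0.00769) and 0.86 ± 0.22 in CD41pos cells (adjusted p = 0.024). In CD41neg cells the call held in all 12 fits that leave out 1 library and all 11 other settings. In CD41pos cells it was lost without CD41pos KO 1, 2 or 3 or CD41pos WT 1 (adjusted p = 0.0698, 0.0687, 0.0788 and 0.0539) and with those 4 WT libraries given their own term (0.66, adjusted p = 0.0937). A replicate block over all 12 libraries ended it too (0.71, adjusted p = 0.0982), where the WT numbers do not pair the libraries.

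No rise in a partner chain of p35 passed the test. Il12b, the p40 chain that completes interleukin 12, had at most 8 counts in CD41pos KO, 7 in CD41pos WT and 19 in CD41neg KO libraries, and 0 in all 3 CD41neg WT libraries. It was left out by the filter on low counts, as were Il23a and Il23r. Ebi3, which pairs with p35 to form interleukin 35, had 26, 14.1 and 22.1 CPM in CD41pos KO, against 35.4, 43.3 and 30.4 CPM in CD41pos WT, and it did not pass in either gate. Of the 7 interleukin 12 family genes tested, Jak2, a kinase of the receptor, rose in CD41pos KO cells (1.11 ± 0.29, adjusted p = 0.0232) and Il27 fell (-1.52 ± 0.43, adjusted p = 0.0313). In that comparison 17.1% of all genes passed. In CD41neg cells 0 of the 7 passed, where 7.82% of all genes did.

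The recombinase genes were low in WT HSCs, with at most 0.319 CPM of Rag1 and 0.999 CPM of Rag2 in a library. Rag1 had 242, 122 and 168 counts (4.74, 2.10 and 2.86 CPM) in CD41neg KO 1, 2 and 3, against 0, 4 and 0 counts in CD41neg WT 2, 3 and 4. A count of 0 allows up to 3 counts, or 0.0585 and 0.062 CPM in these WT libraries, a limit that covers counting error only. Rag1 rose in CD41neg KO (6.71 ± 1.27, adjusted p = 0.0118), although the size of a fitted fold on so few WT counts depends on the prior count of the model. The call held in all 12 fits without 1 library and in all 11 other settings, with the highest adjusted p of 0.0478 without CD41neg WT 4. The log2 change over the other settings ran between 0.86, on log2(TPM + 1), and 6.81.

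Rag2 had 8.09, 1.82 and 3.66 CPM in CD41neg KO 1, 2 and 3, against 0.078, 0.999 and 0.0207 CPM in CD41neg WT 2, 3 and 4. The groups did not overlap, but KO 2 and WT 3 were less than 1 CPM apart. Rag2 passed narrowly in CD41neg cells (3.64 ± 0.99, adjusted p = 0.0446). Its call was lost when any library other than CD41pos WT 3 or CD41neg WT 3 was left out (adjusted p = 0.0541 to 0.144), and without the 4 WT libraries numbered up to 6 it was 2.17 (adjusted p = 0.184).

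In CD41pos cells Rag1 and Rag2 were at or below 1.51 CPM in every library. Rag1 had 35, 36 and 55 counts (0.638, 0.645 and 0.965 CPM) in KO 1, 2 and 3, against 18, 2 and 0 counts in WT 1, 3 and 4 (2.59 ± 1.03, adjusted p = 0.0953). It passed in DESeq2 (adjusted p = 0.0197) and in limma-trend on log2(TPM + 0.1) (adjusted p = 0.0378). Without CD41pos WT 1, the WT library with 18 counts, Rag1 passed (adjusted p = 0.028), and it passed without the 4 WT libraries numbered up to 6 (4.07, adjusted p = 0.00687). Rag2 had 1.51, 0.681 and 0.983 CPM in CD41pos KO, against 0.248, 0.499 and 0.42 CPM in CD41pos WT, and did not pass (1.44 ± 0.93, adjusted p = 0.286).

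Dntt, the terminal transferase gene, had 39.6, 14.6 and 30.6 CPM in CD41neg KO 1, 2 and 3, against 0.858, 11.1 and 0.62 CPM in CD41neg WT 2, 3 and 4. In CD41pos cells it had 11.4, 3.33 and 4.51 CPM in KO, against 0, 2.36 and 1.46 CPM in WT. KO libraries were the higher ones in both gates without overlap, but WT 3 came near the lowest KO library in each. Dntt did not pass in CD41neg (2.76 ± 1.18, adjusted p = 0.162) or CD41pos cells (2.34 ± 1.19, adjusted p = 0.178). Without CD41neg WT 3 it passed in CD41neg cells (5.26, adjusted p = 0.0373), as it did in limma-trend on log2(TPM + 1) (adjusted p = 0.0459).

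Beside these enzyme genes, defining markers of committed lymphocytes stayed low. Pax5, the B cell commitment factor, averaged 0.876 ± 0.26 CPM in CD41neg KO and 0.219 ± 0.38 CPM in CD41neg WT, and Siglech, a plasmacytoid dendritic cell marker, 0.161 ± 0.157 and 0.141 ± 0.123 CPM. The summed level of 12 dendritic cell markers was 135 to 144 CPM in CD41neg KO and 139 to 163 CPM in CD41neg WT, with Klk1 at 0 in all libraries of both groups. These sums came mostly from Bst2, Irf7 and Flt3, which went different ways. Their means were 56.3, 44.9 and 37.0 CPM in CD41neg KO and 87.5, 40.4 and 18.9 CPM in CD41neg WT. Of the dendritic markers 9 could be tested and 0 passed in CD41neg cells, where 7.82% of all genes did. The 9 T and NK cell markers with a row summed to 49.3 to 87.3 CPM in CD41neg KO and 83.9 to 140 CPM in CD41neg WT, again with 0 of 9 passing. Most of these sums was Nkg7 (means of 57.7 and 102 CPM), and the means of the other genes went either way. Fewer cells of a type and less RNA per cell cannot be told apart in such bulk libraries.

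The genes that process RAG breaks were transcribed in every group. Of 11 end-joining genes tested, 1 rose in CD41neg KO, where 7.82% of all genes passed, and 3 rose in CD41pos KO, where 17.1% did, with none lower. Prkdc, the catalytic subunit of DNA-dependent protein kinase, rose in both gates (1.07 ± 0.13, adjusted p = 0.00217 in CD41neg and 0.99 ± 0.13, adjusted p = 0.00201 in CD41pos). It had 85.6, 97.7 and 86.7 CPM in CD41neg KO, against 44.4, 45.3 and 39.0 CPM in CD41neg WT. In CD41pos KO, Polm (1.16 ± 0.22, adjusted p = 0.00731), a polymerase related to terminal transferase, and Dclre1c (0.61 ± 0.17, adjusted p = 0.0311), which encodes the hairpin-opening nuclease Artemis, rose as well. The list's median was -0.08 in CD41neg and 0.11 in CD41pos cells.

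**Figure D2:**
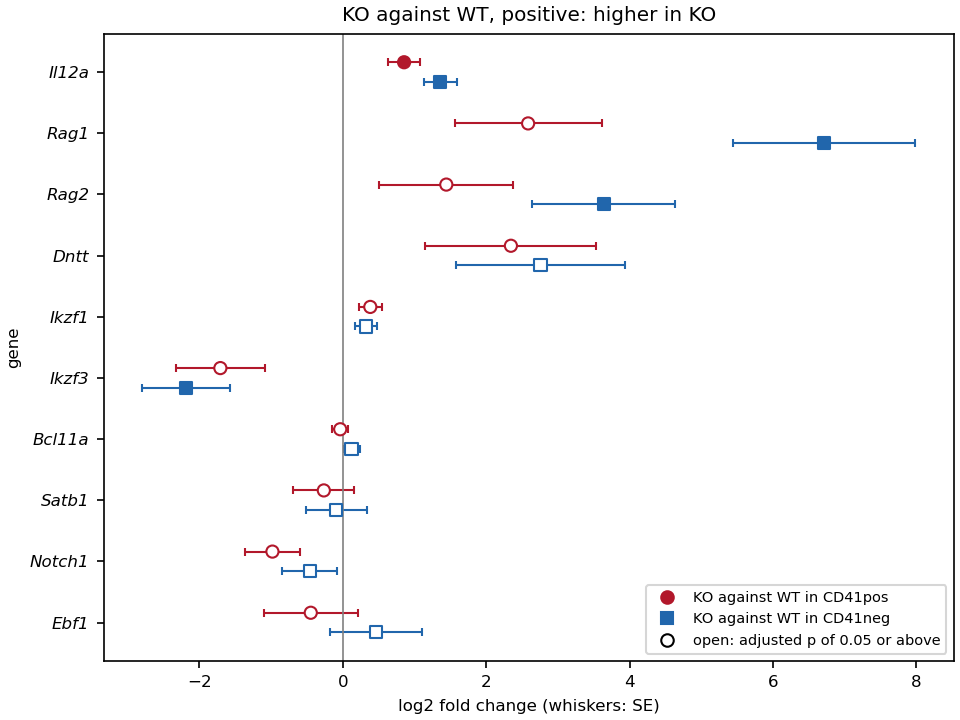
Log2 fold change of KO against WT for each member (horizontal axis, whiskers SE), in CD41pos (circles) and CD41neg HSCs (squares); filled symbols have an adjusted p below 0.05. Il12a is filled in both gates, Rag1, Rag2 and Ikzf3 only in CD41neg, and the whiskers of Rag1, Rag2 and Dntt are the widest.

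The Ikaros family is represented by Ikzf1 and by Ikzf3 (Aiolos, which acts later in B cells). The length implied for Ikzf1 is near its whole span, so its counts may include intronic reads, which was not tested. Ikzf1 had 152, 117 and 130 CPM in CD41pos KO 1, 2 and 3, against 116, 78.1 and 111 CPM in CD41pos WT 1, 3 and 4. In CD41neg cells it had 230, 266 and 251 CPM in KO, against 210, 180 and 209 CPM in WT. Every KO library was above the WT libraries of its gate, though KO 2 and WT 1 of CD41pos were about 1 CPM apart. Ikzf1 did not pass in CD41pos (0.38 ± 0.16, adjusted p = 0.103) or CD41neg cells (0.32 ± 0.16, adjusted p = 0.213). With those 4 WT libraries given their own term it passed in both gates (0.66, adjusted p = 0.0137, and 0.58, adjusted p = 0.0363). Without them, which leaves 1 WT library per gate, the CD41pos change was 0.86.

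Ikzf3 had 1.41, 0.826 and 2.72 CPM in CD41neg KO 1, 2 and 3, against 12.2, 2.07 and 8.25 CPM in CD41neg WT 2, 3 and 4. In CD41pos cells it had 0.748, 0.341 and 0.491 CPM in KO, against 1.63, 1.16 and 2.37 CPM in WT. The CD41neg groups overlapped, since WT 3 lay below KO 3, whereas the CD41pos groups did not. Ikzf3 fell in CD41neg KO (-2.18 ± 0.61, adjusted p = 0.0487) and did not pass in CD41pos KO (-1.71 ± 0.62, adjusted p = 0.0757). In CD41neg cells the call was lost when any library other than CD41pos WT 3 or CD41neg WT 3 was left out (adjusted p = 0.0549 to 0.143). Without the 4 WT libraries numbered up to 6 the change was -0.33 (adjusted p = 0.804), and in CD41pos cells Ikzf3 passed without CD41neg WT 3 (adjusted p = 0.0391) and in DESeq2 (adjusted p = 0.0245).

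Markers of B and plasma cells moved with Ikzf3. Jchain, which joins antibody chains, had 95.1, 48.4 and 88.4 CPM in CD41neg KO, against 2820, 276 and 2350 CPM in CD41neg WT, with WT 3 again the low one. The 9 markers with a row summed to 104 to 195 CPM in CD41neg KO and 349 to 3190 CPM in CD41neg WT, and to 50.8 to 90.7 CPM in CD41pos KO and 136 to 658 CPM in CD41pos WT, with none at 0 in a group. In CD41neg KO 3 of the 9 were lower (Jchain, Mzb1 and Prdm1), and in CD41pos KO 1 was (Jchain). Of genes with a mean of at least 10 CPM, Lax1 (r = 0.957) and the plasma cell gene Mzb1 (0.943) were among the 3 with log2 levels most like Ikzf3 over the 12 libraries. The part of such cells in the change of Ikzf3 was not tested.

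**Figure D3:**
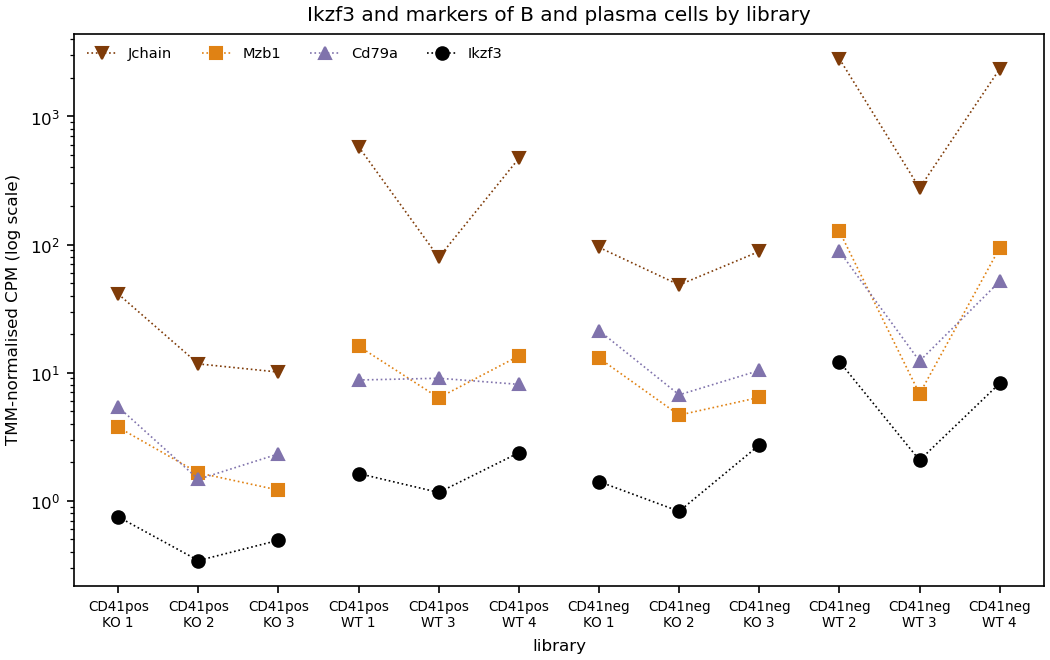
TMM-normalised CPM on a log scale (vertical axis) of Ikzf3 and of Jchain, Mzb1 and Cd79a, markers of B and plasma cells, in each of the 12 libraries (horizontal axis); dotted lines join libraries of a group. In CD41neg WT, libraries 2 and 4 are high and library 3 is low for all 4 genes.

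Bcl11a, a zinc finger regulator needed for B cell development, had overlapping levels in the genotypes. It had 143, 148 and 154 CPM in CD41pos KO, against 148, 161 and 146 CPM in CD41pos WT, and 190, 237 and 202 CPM in CD41neg KO, against 195, 178 and 205 CPM in CD41neg WT. The ranges overlapped, with changes of -0.04 ± 0.11 in CD41pos (adjusted p = 0.85) and 0.12 ± 0.11 in CD41neg cells (adjusted p = 0.515). The sign in CD41pos cells turned under some settings.

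Satb1, a chromatin organiser of early lymphoid cells, had 8.15, 2.90 and 4.93 CPM in CD41pos KO, against 6.53, 5.68 and 6.99 CPM in CD41pos WT. In CD41neg cells it had 11.9, 4.14 and 13.1 CPM in KO, against 13.4, 8.65 and 8.99 CPM in WT. KO 2 was the lowest library of both gates, and the groups overlapped. Neither change passed, with -0.26 ± 0.43 in CD41pos (adjusted p = 0.695) and -0.09 ± 0.42 in CD41neg cells (adjusted p = 0.914).

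Notch1 had 8.66, 8.62 and 13.3 CPM in CD41pos KO, against 21.3, 19.9 and 19.2 CPM in CD41pos WT. All 3 CD41pos KO libraries lay below the WT libraries, as in 22.4% of all genes, yet the change did not pass (-0.98 ± 0.39, adjusted p = 0.093). It passed without CD41neg KO 2 (adjusted p = 0.0159), with only the groups compared (-0.96, adjusted p = 0.035) and in DESeq2 (-0.95, adjusted p = 0.0482). In CD41neg cells Notch1 had 19.4, 6.17 and 24.0 CPM in KO, against 26.2, 17.3 and 24.7 CPM in WT (-0.46 ± 0.38, adjusted p = 0.47), where only KO 2 lay outside the WT range. In CD41pos cells the summed markers of monocytes and macrophages (10 genes) were lower too, at 53.1 to 134 CPM in KO and 218 to 278 CPM in WT, and those of T and NK cells at 79.4 to 138 and 229 to 300 CPM. Each drop came mostly from 1 gene, Ly6c2 (means of 25.9 and 181 CPM) and Nkg7 (100 and 247 CPM). These alone passed, 1 of 10 and 1 of 9, where 17.1% of all genes did. The means of the other genes went either way, with Cd14, Mrc1, Cd4 and Gzma among those higher in KO. The part of such cells in the Notch1 values was not tested.

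Of 19 other genes of Notch signalling and the T lineage that were tested, 1 rose and 1 fell in CD41pos KO, where 17.1% of all genes passed. Rbpj, the DNA-binding partner of activated Notch, rose (0.93 ± 0.24, adjusted p = 0.0221), with 89.7, 101 and 99.0 CPM in CD41pos KO, against 57.0, 30.9 and 64.2 CPM in CD41pos WT. Hes1, a classical target of Notch, fell (-1.23 ± 0.37, adjusted p = 0.0402), with 2.74, 2.10 and 3.35 CPM in CD41pos KO, against 6.78, 7.63 and 4.82 CPM in CD41pos WT. In CD41neg cells 0 of 19 passed, where 7.82% of all genes did. The T lineage factor Gata3 averaged 25.4 ± 3.08 CPM in CD41neg KO and 23.3 ± 5.40 CPM in CD41neg WT.

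Ebf1, which commits cells to the B lineage, was among the scarcest members. It had 5.39, 2.46 and 4.34 CPM in CD41neg KO, against 1.6, 5.68 and 1.57 CPM in CD41neg WT, and 1.24, 0.627 and 1.11 CPM in CD41pos KO, against 0.639, 2.77 and 0.672 CPM in CD41pos WT. In WT the library labelled 3 was the high one in both gates, and the groups overlapped. The changes were 0.46 ± 0.64 (adjusted p = 0.682) in CD41neg and -0.45 ± 0.66 (adjusted p = 0.663) in CD41pos cells. With the 4 WT libraries given their own term, Ebf1 passed as lower in CD41pos KO (-1.40, adjusted p = 0.0349), a comparison that then leans on CD41pos WT 3. Of 15 genes downstream of Ebf1 in B cells, 0 passed between genotypes in either gate, with medians of 0.31 in CD41neg and -0.13 in CD41pos cells. Of all genes 7.82% passed in CD41neg and 17.1% in CD41pos cells.

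Of 20 other genes of early lymphoid progenitors, 3 rose and 0 fell in CD41neg KO, where 7.82% of all genes passed. In CD41pos KO 4 rose and 3 fell, where 17.1% of all genes passed. The medians were 0.27 in CD41neg and -0.30 in CD41pos cells. Tcf12, an E protein transcription factor gene, rose in both gates (0.51 ± 0.13, adjusted p = 0.033 in CD41neg and 0.73 ± 0.13, adjusted p = 0.00487 in CD41pos). Mef2c, a factor of lymphoid and megakaryocyte cells, rose in CD41pos KO (0.66 ± 0.12, adjusted p = 0.00586), where Lsp1, a leukocyte actin-binding protein gene, fell (-1.80 ± 0.34, adjusted p = 0.00678). Flt3 and Il7r, receptors that define lymphoid progenitors, averaged 37.0 ± 19.6 and 2.68 ± 2.44 CPM in CD41neg KO and 18.9 ± 10.8 and 2.06 ± 1.43 CPM in CD41neg WT and did not pass.

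Among the other relatives of Ikaros and the NuRD remodelling complex it works with, 1 of 16 rose in CD41neg KO, where 7.82% of all genes passed. This was Ikzf2 (0.93 ± 0.25, adjusted p = 0.0439), with 30.3, 21.9 and 39.1 CPM in KO, against 15.3, 15.4 and 17.1 CPM in WT. In CD41pos KO, Ikzf5 (0.82 ± 0.22, adjusted p = 0.0272) and the deacetylase gene Hdac2 (0.41 ± 0.12, adjusted p = 0.0328) rose and Mbd3 fell (-0.66 ± 0.21, adjusted p = 0.0471), where 17.1% of all genes passed. The list's medians were -0.08 and 0.01.

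The second question of the design was how the members differ between the CD41 fractions of one genotype. Il12a was higher in CD41pos than in CD41neg HSCs of both genotypes, Ikzf1 was lower in both, and Bcl11a was lower in KO. In KO, 1 member was higher and 2 were lower in CD41pos cells, 3 of 10 where 2.79% of all genes passed. In WT, 1 was higher and 1 lower, 2 of 10 where 5.59% passed. In KO the libraries of 7 members were all lower in CD41pos than in CD41neg, as in 14.1% of all genes, and the median was -1.28 against -0.02 over all genes. In WT this held for 3 members, as in 11.4% of all genes, with a median of -0.52 against 0.01.

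Il12a was higher in CD41pos cells of both genotypes, at 58.3 ± 2.52 against 25.9 ± 4.02 CPM in KO (1.17 ± 0.23, adjusted p = 0.0152) and 32.2 ± 1.41 against 10.1 ± 3.39 CPM in WT (1.68 ± 0.23, adjusted p = 0.00214). Ikzf1 was lower in CD41pos cells, at 133 ± 17.5 against 249.4 ± 18.1 CPM in KO (-0.91 ± 0.16, adjusted p = 0.00864) and 102 ± 20.7 against 200 ± 17.1 CPM in WT (-0.97 ± 0.16, adjusted p = 0.00535). For both genes the WT call held in all 12 fits that leave out 1 library, while that of Ikzf1 was lost with only the groups compared (adjusted p = 0.058). In KO the Il12a call was lost without CD41pos KO 1, 2 or 3 or CD41neg KO 2 or 3 (adjusted p = 0.0564 to 0.0709), and the Ikzf1 call without CD41pos KO 2 or 3 (0.0638 and 0.0561). Both KO calls were also lost in limma-trend with a pseudocount of 1 or 0.1 TPM, at adjusted p = 0.0626 and 0.088 for Il12a and 0.064 and 0.101 for Ikzf1. The replicate block over all 12 libraries ended the calls of both genes in both genotypes (adjusted p = 0.0586 to 0.0869). Bcl11a was lower in CD41pos KO, at 148 ± 5.34 against 210 ± 24.8 CPM (-0.50 ± 0.11, adjusted p = 0.0338). That call was lost when any library other than CD41pos WT 3 or CD41neg WT 4 was left out (adjusted p = 0.0523 to 0.147), and in WT Bcl11a did not pass (-0.34 ± 0.11, adjusted p = 0.0916).

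KO libraries carry the same 3 animal labels in either gate, and libraries of the same label deviated together from their group means over 10206 genes (r = 0.48, 0.66 and 0.54 for KO 1, 2 and 3). With the label as a block in a fit of the 6 KO libraries alone, 7 of the 10 members passed, where 12.4% of all genes did. Il12a was higher in CD41pos cells, and Dntt, Rag1, Rag2, Ebf1, Ikzf1 and Bcl11a were lower. The changes were -2.23 ± 0.21 for Dntt (adjusted p = 0.00306), -2.05 ± 0.35 for Rag1 (adjusted p = 0.0163), -1.94 ± 0.27 for Rag2 (adjusted p = 0.00908) and -2.03 ± 0.23 for Ebf1 (adjusted p = 0.00473). In the fit of all 12 libraries without a block these 4 did not pass (adjusted p = 0.482, 0.35, 0.336 and 0.156). In a fit of the 6 KO libraries without a block 5 members passed, among them Rag1 (adjusted p = 0.0179) and Ebf1 (adjusted p = 0.022) but not Dntt or Rag2. Ebf1 also passed in DESeq2 (adjusted p = 0.0217), and Rag1 in limma-trend with a pseudocount of 1 TPM (adjusted p = 0.0235) or 0.1 TPM (adjusted p = 0.035). For each of the 4 the CD41pos library was the lower one in 3 of 3 labels, with log2 differences of -2.76 to -1.79 for Dntt and -2.10 to -1.94 for Ebf1. Ikzf3 and Satb1 were lower in 3 of 3 labels too and did not pass (adjusted p = 0.0677 and 0.0631), and Notch1 was lower in 2 of 3.

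WT libraries gave no such pairing, since those labelled WT4 deviated in opposite ways (r = -0.52) and those labelled WT3 at r = 0.14. Without a block, Dntt (-1.73 ± 1.18, adjusted p = 0.433), Ebf1 (-1.12 ± 0.65, adjusted p = 0.349) and Ikzf3 (-2.12 ± 0.61, adjusted p = 0.063) did not pass in WT. Ikzf3 passed without CD41neg WT 3 (adjusted p = 0.0205). Rag1 and Rag2 were low in both WT fractions, with 20 against 4 and 61 against 49 counts summed over 3 libraries. Single libraries held most of some sums, with 18 Rag1 counts in CD41pos WT 1 and 44 Rag2 counts (0.999 CPM) in CD41neg WT 3.

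The B lineage genes downstream of Ebf1 were compared between the fractions as well. Of 15 tested, 1 was lower in CD41pos KO cells (Cd24a, -1.01 ± 0.13, adjusted p = 0.00155), where 2.79% of all genes passed. In CD41pos WT cells 4 were lower (Blnk, Pou2af1, Cd24a and Cd79a), where 5.59% passed, and none was higher in either genotype. The medians were -1.98 in KO and -1.68 in WT. Between the WT fractions the 9 B and plasma cell markers moved the same way, with sums of 136 to 658 CPM in CD41pos WT and 349 to 3190 CPM in CD41neg WT, and 3 of the 9 were lower in CD41pos WT (Cd79a, Prdm1 and Sdc1). Cd79a had 8.76, 9.04 and 8.10 CPM in CD41pos WT, against 88.7, 12.3 and 51.6 CPM in CD41neg WT, and Pou2af1 was likewise highest in CD41neg WT 2 and 4. The part of such cells in these values was not tested.

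**Figure D4:**
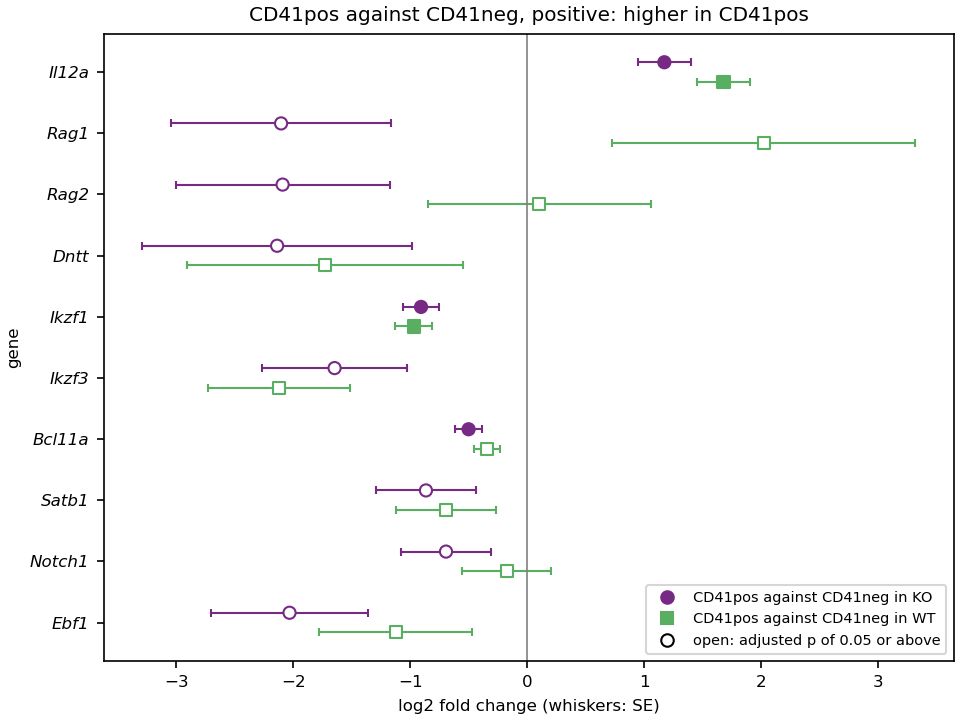
Log2 fold change of CD41pos against CD41neg for each member (horizontal axis, whiskers SE), in KO (circles) and WT (squares), from the fit without a block; filled symbols have an adjusted p below 0.05. Il12a lies to the right of 0 in both genotypes, Ikzf1 to the left in both, and Bcl11a is filled only in KO.

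Whether the genotype effect differed between the gates was tested by the interaction. In edgeR 0 members passed, as did 0 of all 19395 genes, of which 5.64% had an unadjusted p below 0.05. The largest member value was that of Rag1 (-4.12 ± 1.59, adjusted p = 0.847). DESeq2 called 67 genes and 0 members. That Rag1, Rag2 and Ikzf3 passed in CD41neg cells and not in CD41pos cells is thus not shown to be a difference between the gates.

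The members did not move as a block across the 12 libraries. Rag1 and Rag2 had log2 levels that correlated at r = 0.852 and Ikzf1 and Bcl11a at 0.83, while Ikzf3 and Il12a correlated at -0.841, all over the same 12 libraries and so in part a reflection of the groups. The levels most like Il12a were those of Dok2 (r = 0.987), Treml1 (0.973), a platelet granule receptor, and Celf2 (0.972). Dntt was closest to Hbb-bs (0.93), Hbb-bt (0.912) and Alas2 (0.901), genes of haemoglobin and haem synthesis. Rag1 was closest to Rn7s1 (0.942) and Rn7s2 (0.937), near-identical 7S RNA copies whose counts are uncertain, and Ppp1r15a (0.931), and Rag2 to Wdr47 (0.928), Pde4b (0.927) and Rgs2 (0.926). Ikzf1 was closest to Aplp2 (0.988), Fech (0.982) and Cd44 (0.975), and Bcl11a to Col5a1 (0.978), Hpn (0.96) and Cpox (0.95). For Notch1 these were Ctsh (0.931), Ifitm1 (0.927) and Lst1 (0.923), for Satb1 Rab3il1 (0.946), Procr (0.94) and Relb (0.92), and for Ebf1 they included Rrad (0.907) and Tgif1 (0.885).

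Within the groups, the animal label ordered many members, a pattern noticed after the values were seen. KO 2 was the lowest library of its group in both gates for 7 of the 10 members (Dntt, Ebf1, Ikzf3, Il12a, Notch1, Rag2 and Satb1), as it was for 18.8% of all genes tested. WT 3 was the highest in both gates for 4 (Dntt, Ebf1, Il12a and Rag2), as for 13.2% of all genes. KO 2 was also the KO label with Xist, and the part of sex in this order within groups was not tested.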

How the data were processed

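RNA of sorted HSCs was extracted with a miRNeasy Micro kit and made into libraries with a SMART-Seq v4 kit, per the labels' protocols; this kit does not mark strand. The submitters' processing notes name FastQC 0.11.7, cutadapt 1.9.1, STAR 2.6.1e, featureCounts 1.6.2 and the mm10 build. The sources used here give no settings or annotation. The authors deposited whole read counts per gene, used in every main test, and TPM values with 1 decimal, used for levels between genes and as an alternative. The count table had 27 gene names turned into dates, and these were read from the TPM table.

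Genotype and gate gave 4 groups of 3 libraries. Counts were filtered with filterByExpr (19395 of 35869 genes kept), scaled by TMM and fitted in 1 quasi-likelihood model of 4 group means (edgeR 4.0.16, R 4.3.3). The tests were two-sided, Benjamini-Hochberg adjusted over all genes, with a threshold of 0.05, and the procedure was tested on simulated data. SEs are derived from the F statistic. Correlations use log2 CPM with a prior count of 1. No 2 replicates agreed within sampling noise, with a chi-square of 14.5 to 250 times its degrees of freedom over 12 pairs.

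Alternatives were DESeq2 1.42.0, its size factors, other low-count filters, only the groups compared, replicate block, limma-trend (limma 3.58.1) on log2(TPM + 1) and log2(TPM + 0.1), a term for or removal of 4 WT libraries, a Y-linked covariate and leaving out each library. The blocked fit of the KO libraries alone was added after seeing the data. The KO labels pair the libraries by the animal label and the correlation of their deviations. Named genes were the members, up to 3 genes of each context list with the smallest adjusted p per gate, and the 3 most alike of each member, of which some are not reported here; Il12b, Ebi3, Pax5, Siglech, Gata3, Flt3, Il7r and Cd79a, named for comparison, were chosen after their values were seen. Cell type markers and the B lineage genes called between gates were named by their lists. The members and lists were chosen with earlier results of these data known.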

Additional observations from a re-analysis of the deposited data

How the results depend on the processing

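The counts of members called were 1 (KO against WT, CD41pos), 4 (KO against WT, CD41neg), 3 (CD41pos against CD41neg, KO), 2 (the same, WT) and 0 (interaction). DESeq2 gave 4 in CD41pos and 4 between WT gates. A fit of only the groups compared gave 2, 2, 5 and 1. The replicate block over all 12 libraries gave 0, 2, 1 and 0, where the WT numbers do not pair the libraries, and the block in KO alone gave 7. The block over all libraries ended the call of Il12a in CD41pos (0.71, adjusted p = 0.0982), those of Rag2 and Ikzf3 in CD41neg (adjusted p = 0.0884 and 0.197), those of Il12a, Ikzf1 and Bcl11a between KO gates (0.0653, 0.0586 and 0.186) and those of Il12a and Ikzf1 between WT gates (0.0586 and 0.0869). limma-trend gave 1 between KO gates with either pseudocount and 2 in CD41pos with TPM + 0.1. A term for the 4 early-numbered WT libraries gave 2 in CD41pos, and leaving them out gave 3 in CD41pos, 2 in CD41neg and 5 between KO gates. Leaving out 1 library gave 0 to 2, 2 to 5, 0 to 3, 2 to 3 and 0. The cause of these moves was not tested.

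Signs turned in 15 of the 50 member results, with an adjusted p of at least 0.35 in each case and no call in either fit. In CD41pos, KO against WT, Bcl11a was 0.0085 with no filter, 0.15 with TPM + 1 and 0.17 with TPM + 0.1, Ebf1 was 0.046 and 0.33 with these TPM settings, Rag2 was -0.30 with the term, and Satb1 was 0.0066 without the 4 libraries. In CD41neg, Satb1 was 0.061 with TPM + 1, 0.13 with TPM + 0.1, 0.13 with the term and 0.16 without the 4 libraries, and Ebf1 was -0.56 with the term and -0.49 without them. Between WT gates, Rag1 was -0.90 with the block and, without the 4 libraries, Rag1 was -1.04, Rag2 -1.07 and Notch1 0.13. In the interaction, Ikzf3 was -0.22 with the block and -0.71 without the 4 libraries, where Dntt was 0.20. With 1 library left out, the ranges that crossed 0 in KO against WT were -0.062 to 0.0058 (Bcl11a), -0.78 to 0.59 (Ebf1) and -0.71 to 0.035 (Satb1) in CD41pos and -0.37 to 0.27 (Satb1) in CD41neg. Between WT gates they were -2.50 to 0.78 (Dntt), -0.46 to 5.76 (Rag1) and -0.46 to 2.91 (Rag2). In the interaction they were -2.89 to 0.36 (Dntt), -1.78 to 0.13 (Ebf1), -0.10 to 0.17 (Ikzf1), -0.058 to 1.04 (Ikzf3) and -0.61 to 0.13 (Satb1).

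Over all genes, 3309, 1517, 541, 1084 and 0 were called in the same order. DESeq2 called 2989 in CD41neg, 1242 between KO gates, 2301 between WT gates and 67 in the interaction. Only the groups compared gave 2154 in CD41pos, 1505 between KO gates and 201 between WT gates. The block gave 957, 458, 156, 42 and 1, and the block in KO alone 2222. A Y-linked covariate gave 3195, 1444, 590, 1136 and 0. TPM + 0.1 gave 2090 in CD41pos and 26 in the interaction, TPM + 1 gave 7 there and no filter 2. Without the 4 WT libraries the counts were 7469 in CD41pos, 1464 and 4672 between gates and 3368 in the interaction, with each WT group then 1 library assumed to vary like the KO libraries. Leaving out 1 library gave 965 to 4076, 341 to 3856, 196 to 1041, 442 to 1166 and 0 to 2. CD41neg WT holds 4 Rag1 reads in all.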
